A study of Homo sapiens with 6 samples.

Results

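The genes examined here encode the CDK inhibitors and the GADD45 stress proteins of PC-3 cells, an established human prostate cancer cell line. They were taken by symbol: CDKN1A, CDKN1B and CDKN1C of the CIP/KIP family, CDKN2A, CDKN2B, CDKN2C and CDKN2D of the INK4 family, and GADD45A, GADD45B and GADD45G. All 10 were found among the 64253 genes of the count tables, and 9 had enough reads to be tested. RNA was sequenced from PC-3 cells in which an shRNA targets CdGAP (shCdGAP, 3 samples) and from PC-3 cells with a control shRNA (shCon, 3 samples). CdGAP is the Rac1/Cdc42 GTPase-activating protein encoded by ARHGAP31. Both groups were the same parental line, and the labels give no drug, dose or time. According to the methods, the hairpin against CdGAP was delivered by lentivirus, infected cells were selected with puromycin, and single-cell clones were then grown out. Cloning is not described for the control cells, so a difference between a clone and the bulk line cannot be told apart from an effect of the hairpin.

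Progression through G1 is driven by cyclin D bound to CDK4 or CDK6 and then by cyclin E or cyclin A bound to CDK2, which together phosphorylate the retinoblastoma protein and release E2F factors. INK4 proteins bind CDK4 and CDK6 and keep them from cyclin D, whereas CIP/KIP proteins bind complexes of cyclin and CDK and can block CDK2. GADD45 proteins are small stress-induced proteins that bind PCNA, the CDK1 and cyclin B1 complex and the kinase MAP3K4.

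Between 33182796 and 43154039 reads were counted per library. ARHGAP31 was lower in every shCdGAP library, with a log2 fold change of -1.14 (standard error 0.0409), a change of -54.7%. The paper reports a larger loss of CdGAP mRNA for its PC-3 clone, and the reason for the gap was not tested. Levels are given as TMM-scaled CPM, the reads of a gene scaled to a common library total. The replicate 2 library of shCdGAP stood apart from the other shCdGAP libraries: scaled to the same total, its counts differed from theirs by a chi-square of 29.6 and 36.1 per gene, against 3.40 between replicates 1 and 3, and 2.68 to 7.31 within shCon. Where leaving it out changes a call of a gene described, the value without it is given too. KRT8, KRT18, EPCAM, VIM and CD44, which PC-3 cells express, were all detected at 83.0 mean CPM or more in each group. KLK3, the gene of prostate-specific antigen, and the T cell gene CD3E had no read in any library. The leukocyte gene PTPRC had at most 1 read. PECAM1, an endothelial marker, was at 2.37, 5.99 and 2.71 CPM in shCdGAP replicates 1 to 3 and at 5.52 mean CPM in shCon cells, so that it too was highest in replicate 2 among shCdGAP libraries. Among the other markers of foreign cell types, the collagen gene COL1A1 had 57.1 mean CPM in shCdGAP and 18.0 in shCon cells, the stromal gene DCN had at most 5 reads in a library, and the liver gene ALB at most 3. The part of such signals in the results below was not tested. In RNA from whole cultures, a change in the share of cells that express a gene and a change of RNA per cell cannot be told apart.

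Of the 9 tested genes, 6 rose in shCdGAP cells (CDKN1A, CDKN1C, CDKN2B, CDKN2C, CDKN2D and GADD45A) and 1 fell (CDKN1B) at an adjusted p under 0.01 by edgeR's quasi-likelihood test. CDKN2A and GADD45B did not pass. Over all 16439 tested genes, 24.1% passed as higher and 22.0% as lower. With a log2 fold change above 1 required as well, 5 of the 9 passed as higher, against 8.56% of all tested genes, and none passed as lower, against 4.19%. The median log2 fold change was 1.02 for the 9 genes and 0.01 for all tested genes. The set was chosen with results of these libraries known, among them a rise of CDKN1A and other checkpoint genes that the study described, so the counts are not independent evidence of a direction. Without replicate 2 of shCdGAP, 7 genes were higher and 2 lower, because GADD45G then passed the filter on low reads, through its shCdGAP reads alone, and CDKN2A passed the test. Calls were more numerous over all genes too, with 5013 higher and 5022 lower without that library against 3963 and 3624 with it.

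**Figure D1:**
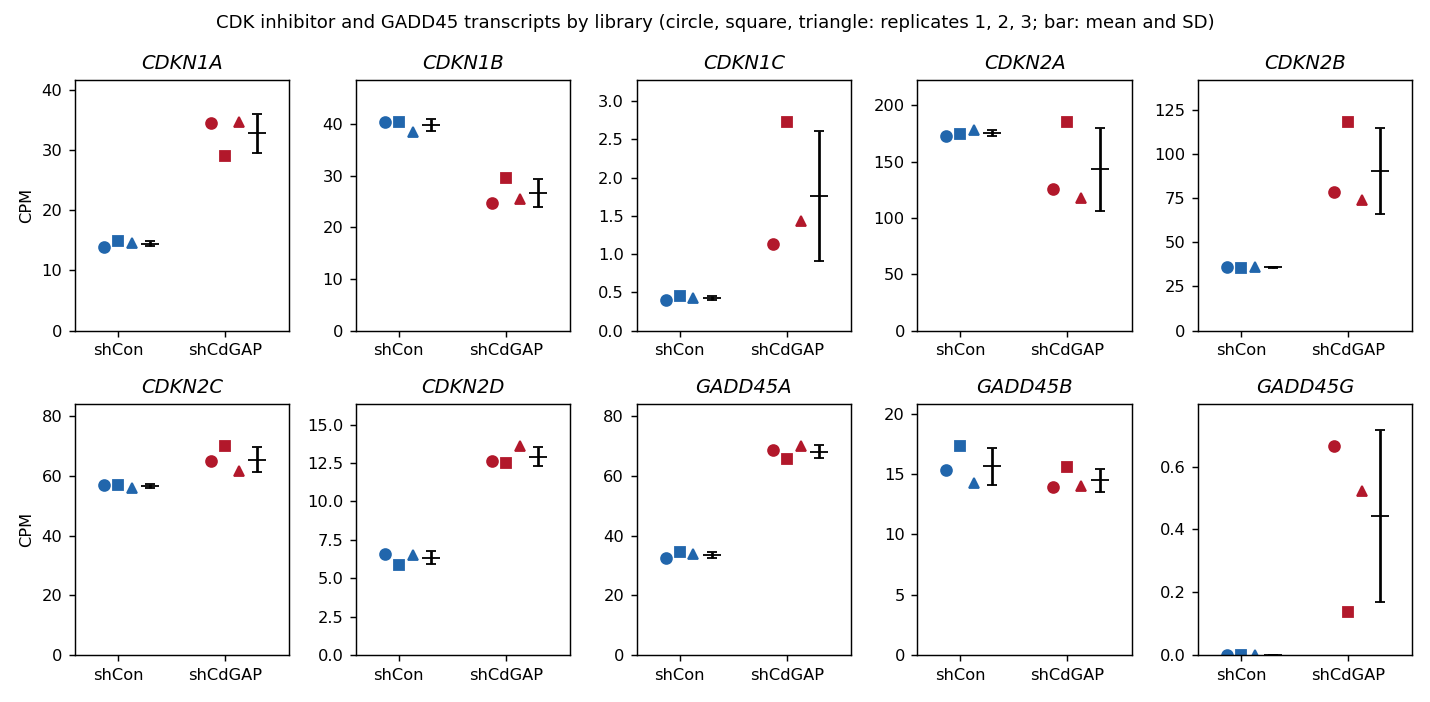
Level of each gene in CPM (vertical axes, each starting at 0) for the 3 shCon and 3 shCdGAP libraries, with circles, squares and triangles for replicates 1, 2 and 3 and bars for the mean and SD of each group. The shCon points lie close together for most genes. The square of shCdGAP stands far above the circle and triangle for CDKN1C, CDKN2A and CDKN2B, and above them by less for CDKN1B, CDKN2C and GADD45B.

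Promoter sequences were found in RefSeq (build GRCh38.p14) for 8 of the 10 genes, and not for CDKN1C and GADD45A. The 250 bases before the start are shown for CDKN1A, CDKN2B and CDKN2D, which rose at a log2 fold change above 1, for CDKN1B, which fell, and for both listed starts of CDKN2A, whose products the counts cannot separate. Capitals mark the GC box GGGCGG, in either strand, the core bound by SP1 and KLF factors.
CDKN1A, chr6:36678464-36678713, plus strand: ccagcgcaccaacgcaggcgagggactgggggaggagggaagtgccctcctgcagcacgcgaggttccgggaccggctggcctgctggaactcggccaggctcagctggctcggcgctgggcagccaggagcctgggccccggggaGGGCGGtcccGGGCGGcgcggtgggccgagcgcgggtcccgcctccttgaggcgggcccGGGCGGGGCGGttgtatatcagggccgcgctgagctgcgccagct
CDKN2B, chr9:22009306-22009555, minus strand: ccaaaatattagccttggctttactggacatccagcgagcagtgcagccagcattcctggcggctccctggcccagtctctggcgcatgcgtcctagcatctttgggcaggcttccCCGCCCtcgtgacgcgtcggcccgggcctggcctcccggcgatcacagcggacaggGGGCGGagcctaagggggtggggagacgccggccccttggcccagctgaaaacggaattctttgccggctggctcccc
CDKN2D, chr19:10568980-10569229, minus strand: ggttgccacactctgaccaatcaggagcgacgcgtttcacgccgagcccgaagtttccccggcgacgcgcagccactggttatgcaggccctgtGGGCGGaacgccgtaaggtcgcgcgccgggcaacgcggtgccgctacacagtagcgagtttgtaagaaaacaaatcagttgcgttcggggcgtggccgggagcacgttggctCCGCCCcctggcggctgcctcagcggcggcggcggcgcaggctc
CDKN1B, chr12:12717118-12717367, plus strand: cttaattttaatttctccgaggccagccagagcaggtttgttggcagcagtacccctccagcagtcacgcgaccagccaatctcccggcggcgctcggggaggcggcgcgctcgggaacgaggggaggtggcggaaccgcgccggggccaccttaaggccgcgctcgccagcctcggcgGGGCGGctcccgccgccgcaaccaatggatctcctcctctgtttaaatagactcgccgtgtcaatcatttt
CDKN2A inner start, chr9:21974858-21975107, minus strand: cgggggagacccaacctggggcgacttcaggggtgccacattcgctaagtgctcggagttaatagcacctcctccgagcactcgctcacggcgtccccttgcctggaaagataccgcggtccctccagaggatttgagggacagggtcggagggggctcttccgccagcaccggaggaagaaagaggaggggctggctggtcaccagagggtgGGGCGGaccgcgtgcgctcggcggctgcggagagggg
CDKN2A outer start, chr9:21995325-21995574, minus strand: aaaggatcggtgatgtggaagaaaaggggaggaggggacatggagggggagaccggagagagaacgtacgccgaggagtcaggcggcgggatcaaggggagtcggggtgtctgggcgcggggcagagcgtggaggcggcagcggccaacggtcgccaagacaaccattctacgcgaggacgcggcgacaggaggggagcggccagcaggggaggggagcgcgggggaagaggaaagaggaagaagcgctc
The letters GGGCGG occurred 4 times in the CDKN1A window, with the last pair overlapping, 2 times each in the CDKN2B and CDKN2D windows, 1 time in the CDKN1B window and the window of the inner CDKN2A start, and not in that of the outer start. They were present in 42.6% of the 35116 promoter windows of the same length. CCAAT, in either strand, occurred 2 times in the CDKN1B window and 1 time in that of CDKN2D, and in 32.0% of all windows. TATAAA, found in 10.7% of all windows, was in none of those printed but in that of GADD45B, and CACGTG, found in 6.34%, was in the windows of GADD45B, GADD45G and 2 of the 3 CDKN2C starts. The letters GGGCGG were thus present both before members that rose and before CDKN1B, which fell.

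CDKN1A (ENSG00000124762, GRCh38 chromosome 6 from 36676460 to 36687339, plus strand) encodes p21, which binds CDK2 complexes and PCNA. It was at 34.5, 29.0 and 34.7 CPM in shCdGAP replicates 1 to 3 and at 13.9, 14.8 and 14.6 CPM in the shCon replicates. Every shCdGAP library was thus above every shCon library, which held for 34.4% of all tested genes. The rise was 2.27-fold (95% interval 2.00 to 2.56, adjusted p = 2.86e-06 by edgeR), and the log2 fold change lay between 1.13 and 1.25 under all alternatives tried. CDKN1B (ENSG00000111276, chromosome 12 from 12715058 to 12722371, plus strand) encodes p27, the inhibitor that holds CDK2 in resting cells, and it moved the other way. It was at 24.7, 29.7 and 25.6 CPM in shCdGAP and at 40.5, 40.5 and 38.5 CPM in shCon libraries. Every shCdGAP library was below every shCon library, as was the case for 32.7% of all tested genes. Its level fell by 33.0% (log2 fold change -0.58, standard error 0.0703, adjusted p = 0.000118 by edgeR).

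CDKN1C (ENSG00000129757, chromosome 11 from 2883213 to 2885881, minus strand) encodes p57, an imprinted inhibitor expressed from the maternal allele. It was the scarcest tested gene of the set, with 46, 119 and 49 reads in shCdGAP and 17, 19 and 14 reads in shCon libraries. Replicate 2 of shCdGAP held 2.73 CPM against 1.13 and 1.43 in replicates 1 and 3, and the shCon libraries lay between 0.405 and 0.450. The log2 fold change was 2.05 (95% interval 1.21 to 2.90, adjusted p = 0.00139 by edgeR). Without replicate 2 it was 1.56 (adjusted p = 2.17e-06), so the direction and the call did not rest on that library.

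Levels were compared between genes only per length, as TPM, a transcript abundance scaled to a common total, from the counts and the gene lengths in the tables. By this measure the summed CIP/KIP level was 83.0, 86.0 and 84.0 TPM in shCdGAP and 76.4, 77.9 and 74.2 TPM in shCon libraries, so the groups did not overlap but lay within a ratio of 1.11. The makeup of that sum differed much more than its size. CDKN1B made up 74.3% ± 0.949 (SD, n = 3) of the CIP/KIP sum in shCon cells and 45.3% ± 4.02 (SD, n = 3) in shCdGAP cells. The CDKN1A share was 24.8% ± 0.915 in shCon and 51.4% ± 5.55 in shCdGAP cells (SD, n = 3 each). CDKN1C stayed a small part, at 0.865% of the sum in shCon and 3.25% in shCdGAP cells on average. The ratio of CDKN1A to CDKN1B was 1.29, 0.901 and 1.25 in shCdGAP libraries against 0.317, 0.337 and 0.350 in shCon libraries. Here replicate 2 of shCdGAP lay nearest to the shCon libraries, and it was the only shCdGAP library in which CDKN1B exceeded CDKN1A in TPM.

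**Figure D2:**
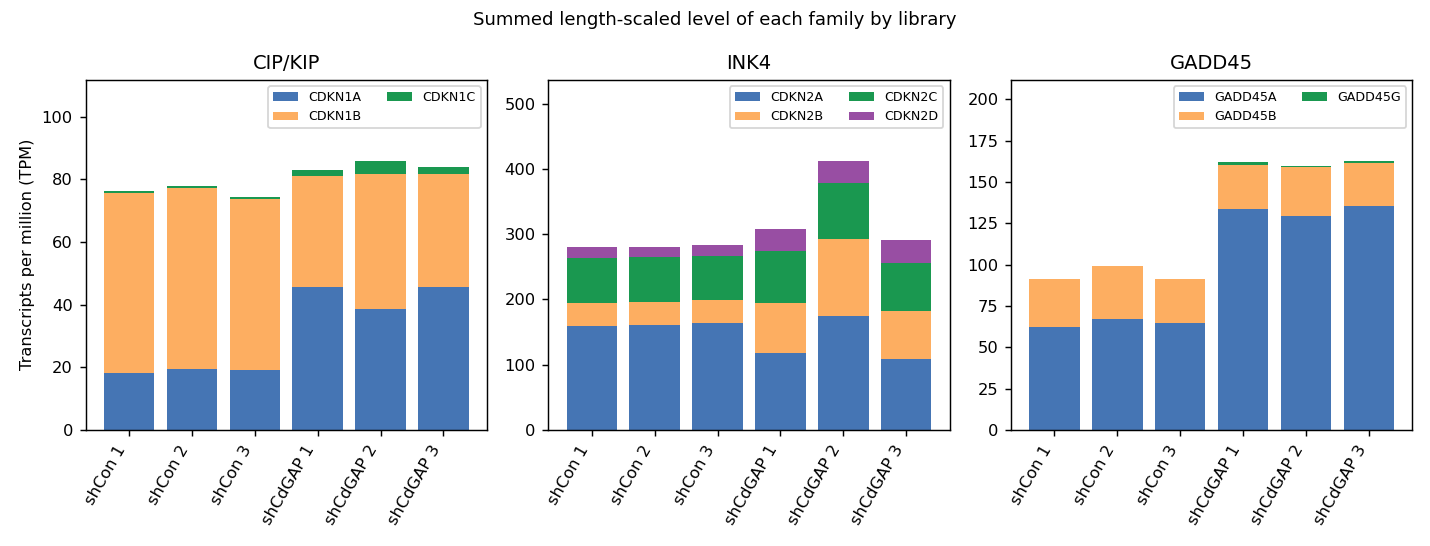
Stacked level in TPM (vertical axes) of the CIP/KIP, INK4 and GADD45 genes in each of the 6 libraries (horizontal axes). The CIP/KIP bars are of like height in both groups with a larger CDKN1A portion in shCdGAP, the INK4 bar of shCdGAP replicate 2 stands highest at 413 TPM, and the GADD45 bars of shCdGAP are all above those of shCon.

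The INK4 genes CDKN2A and CDKN2B lie side by side on chromosome 9 (GRCh38), from 21967753 to 21995301 and from 22002903 to 22009363, both on the minus strand. CDKN2B (ENSG00000147883) encodes p15, the INK4 inhibitor known as a target of TGF-beta signalling. It was at 78.1, 118 and 74.0 CPM in shCdGAP and at 35.9, 35.1 and 36.0 CPM in shCon libraries. No shCdGAP library came near the shCon range, and replicate 2 was the highest by far. The rise was 2.53-fold (95% interval 1.83 to 3.50, adjusted p = 0.00140 by edgeR). Without replicate 2 the log2 fold change was 1.08 in place of 1.34, and the gene missed the threshold only when no filter on low counts was applied (adjusted p = 0.0163).

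CDKN2A (ENSG00000147889) encodes p16 and, from another start and reading frame, p14ARF, an inhibitor of MDM2. Counts per gene do not separate these products. CDKN2A was at 126, 186 and 118 CPM in shCdGAP and at 173, 175 and 178 CPM in shCon libraries. Replicates 1 and 3 of shCdGAP lay below the shCon range and replicate 2 lay above it. The log2 fold change was -0.29 (95% interval -0.73 to 0.15, adjusted p = 0.207 by edgeR), which did not pass. Without replicate 2 it was -0.53 (adjusted p = 1.39e-19), so that single library decided the call. Its coefficient of variation over shCdGAP libraries, 25.8%, was higher than that of 98.4% of the 9875 tested genes with a mean of at least 10 CPM, and that of CDKN2B, 27.1%, was higher than that of 98.6%. In shCon libraries the coefficients were 1.43% and 1.34%.

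The 2 neighbours varied together within shCdGAP. The ratio of CDKN2B to CDKN2A (TPM) was 0.662, 0.680 and 0.669 in shCdGAP replicates 1, 2 and 3, although the level of each gene in replicate 2 was the highest of the group. In shCon libraries the ratio was 0.221, 0.215 and 0.216. The groups differed 3.08-fold in this ratio, far beyond the spread of either, with an SD of 0.00873 in shCdGAP and 0.00356 in shCon (n = 3 each). With 3 libraries in each group the lowest possible p of an exact two-sided permutation test is 0.1, so no p is given for ratios. CDKN2B-AS1, the antisense transcript ANRIL that runs across CDKN2B and the first bases of CDKN2A on the plus strand and was counted by strand, was at 1.86 ± 0.359 CPM in shCdGAP and 2.03 ± 0.0467 in shCon cells (SD, n = 3 each) and did not pass (adjusted p = 0.560 by edgeR). MTAP, the purine salvage enzyme gene next to CDKN2A and often lost with it in tumours, fell by 0.18 on the log2 scale (adjusted p = 0.00128 by edgeR). MTAP was at 113, 111 and 111 CPM in shCdGAP replicates 1 to 3, so it was not raised in replicate 2, whereas CDKN2B-AS1 was at 2.27 CPM in replicate 2 and at most 1.72 CPM in the others, and so was highest in replicate 2, as CDKN2A and CDKN2B were.

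CDKN2C (ENSG00000123080, chromosome 1 from 50960745 to 50974633, plus strand) encodes p18 and CDKN2D (ENSG00000129355, chromosome 19 from 10566462 to 10569059, minus strand) p19, both inhibitors of CDK4 and CDK6. CDKN2D was at 12.6, 12.5 and 13.6 CPM in shCdGAP and at 6.60, 5.85 and 6.54 CPM in shCon libraries. The groups were well apart, replicate 2 was not raised, and the rise was 2.04-fold (95% interval 1.79 to 2.32, adjusted p = 8.74e-06 by edgeR). CDKN2C was at 64.9, 70.1 and 61.5 CPM in shCdGAP and at 56.9, 57.1 and 55.9 CPM in shCon libraries. This small rise of 15.7% passed (adjusted p = 0.00666 by edgeR) but missed the threshold when any one of the shCon libraries or shCdGAP replicate 1 was removed, the adjusted p then lying between 0.0279 and 0.0401. It also missed it when chromosomes 9 and 13 were left out of the scaling (adjusted p = 0.0108).

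Per length, CDKN2A was the leading INK4 transcript in both groups, with 57.4% ± 0.491 of the family sum in shCon and 39.2% ± 2.66 in shCdGAP cells (SD, n = 3 each). CDKN2B made up 12.5% of the sum in shCon and 26.3% in shCdGAP cells, CDKN2D 5.97% and 10.5%, and CDKN2C 24.2% and 23.9%. The whole family summed to 308, 413 and 292 TPM in shCdGAP and to 281, 281 and 284 TPM in shCon libraries. The shCdGAP libraries were all higher, although replicate 3 exceeded the highest shCon library by little. Set against the summed level of CDK4 and CDK6, whose products INK4 proteins bind, the INK4 sum gave ratios of 0.989, 1.34 and 0.982 in shCdGAP libraries. In shCon libraries these ratios were 0.722, 0.714 and 0.754. The ratio of the CIP/KIP sum to CDK2 was 0.806 ± 0.0760 in shCdGAP and 0.608 ± 0.0106 in shCon cells (SD, n = 3 each). All of these are ratios of TPM from gene lengths, not counts of molecules.

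GADD45A (ENSG00000116717, chromosome 1 from 67685061 to 67688338, plus strand) encodes a stress-inducible protein that binds PCNA and the CDK1 kinase. It was at 68.6, 65.8 and 70.1 CPM in shCdGAP and at 32.3, 34.5 and 33.7 CPM in shCon libraries. It was the member with the tightest shCdGAP group, with a coefficient of variation of 3.20%, and it rose 2.03-fold (95% interval 1.89 to 2.18, adjusted p = 2.57e-07 by edgeR). GADD45B (ENSG00000099860, chromosome 19 from 2476122 to 2478259, plus strand), known as an early response gene of TGF-beta and NF-kappaB signalling, was at 13.9, 15.6 and 14.0 CPM in shCdGAP and at 15.3, 17.3 and 14.3 CPM in shCon libraries. The groups overlapped, and edgeR's test gave an adjusted p of 0.302, which did not pass. The 95% interval of its fold change, 0.809 to 1.06, excludes a change of the size seen for GADD45A. GADD45G (ENSG00000130222, chromosome 9 from 89605013 to 89606555, plus strand) had 27, 6 and 18 reads in shCdGAP libraries and none in shCon libraries, too few in shCdGAP replicate 2 to be kept by edgeR's filter. Taking 3 reads per library as the limit of a count of 0, its mean in shCdGAP cells, 0.442 CPM, was at least 5.69-fold above shCon cells. That bound holds for the mean only, as replicate 2 had 0.138 CPM against a limit of 0.0778 CPM in shCon cells. DESeq2, which keeps such genes, gave an adjusted p of 1.43e-05. With edgeR, the adjusted p was 1.14e-12 with no filter on low counts and 1.17e-09 without replicate 2 of shCdGAP, but 0.0146 to 0.0171 when one shCon library was left out, which also admitted the gene. Where a filter admitted it, it did so through its shCdGAP reads alone, so those adjusted p values are given as description only. In TPM, GADD45A made up 68.9% of the family sum in shCon and 82.2% in shCdGAP cells, and the sum itself was 94.0 ± 4.65 and 162 ± 1.70 TPM (SD, n = 3 each).

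**Figure D3:**
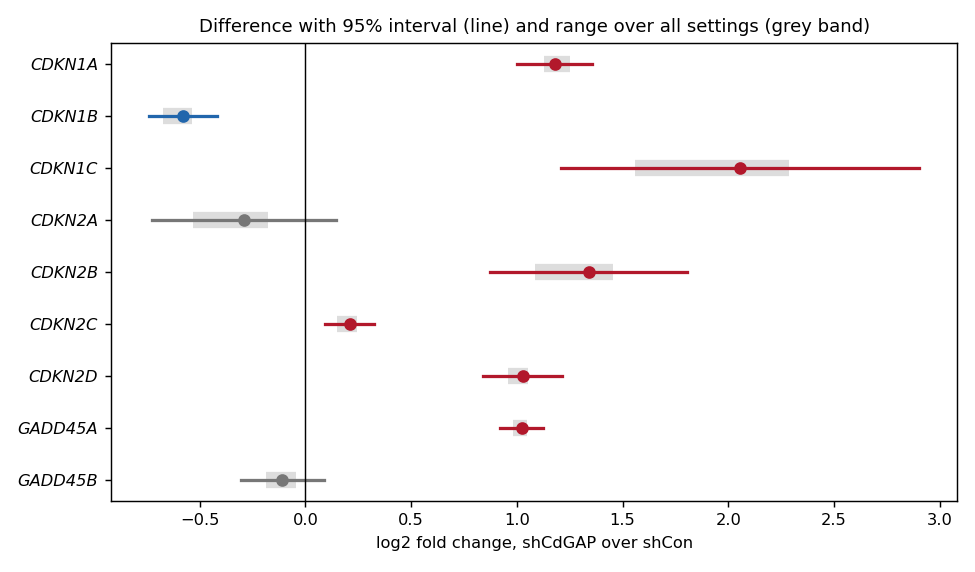
Log2 fold change of shCdGAP over shCon (horizontal axis) for the 9 tested genes, with lines for the 95% interval and grey bands for the range over all 16 settings. Points in red rose, the point in blue (CDKN1B) fell, and the grey points (CDKN2A and GADD45B) did not pass an adjusted p of 0.01.

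Members were set beside the 5 nearest tested genes on each side, as positions in the tables give them. No member lies on chromosome 13, where the median log2 fold change of tested genes was -0.99. Over all tested genes 24.1% were higher and 22.0% lower, the shares to set beside all counts of neighbours here. Of those on chromosome 9 (median -0.42), CDKN2A and CDKN2B had neighbours with medians of -0.08 and -0.20. CDKN2B rose, and of its 10 neighbours none rose and 3 fell, the latter near the share over all genes. GADD45G, also on chromosome 9, had neighbours with a median of -0.33, from -5.44 to 3.44, of which 2 rose and 6 fell. CDKN1A lies between SRSF3 and PPIL1, which fell by 0.30 and 0.18 on the log2 scale. GADD45A lies between SERBP1, which fell by 0.48, and GNG12, which rose by 0.20. CDKN2D lies between KRI1 (0.06, not passed, but higher at 0.11 without replicate 2 of shCdGAP) and SLC44A2, which rose by 0.82. The neighbours of CDKN2C had the highest median, 0.59, with 4 of 10 higher and none lower, beside the same shares over all genes. Next to it, FAF1 rose by 0.23 and RNF11 by 0.83, both more than CDKN2C itself at 0.21. CDKN1B lies between GPR19, which had -0.29 and did not pass, and the gene ENSG00000275560, for which the tables used give no name and which had -0.0054 (adjusted p = 0.990). For CDKN2B the nearest tested genes by start were CDKN2B-AS1 and the pseudogene UBA52P6 at -0.85, which did not pass (adjusted p = 0.0230).

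CDKN1C lies in an imprinted domain of chromosome 11, and its neighbours there are known imprinted genes too. On one side KCNQ1OT1, the paternally expressed long RNA of the domain, had a log2 fold change of 0.39 and did not pass (adjusted p = 0.0691 by edgeR). On the other, SLC22A18 rose by 1.47 (adjusted p = 3.34e-05). PHLDA2, which lies beyond it and is named here after its value was seen, rose by 1.08 (adjusted p = 2.22e-07). SLC22A18 and PHLDA2 are, like CDKN1C, known as maternally expressed. Alleles were not separated here, and whether maternally expressed genes of the domain moved together was not tested. Of the genes farther out, CARS1 rose by 0.29. NAP1L4 (-0.09), TSSC4 (-0.08), OSBPL5 (0.04), CD81 (-0.03), CD81-AS1 (0.20) and TH (-0.28) did not pass. In all, 3 of the 10 neighbours rose and none fell, beside 24.1% higher and 22.0% lower over all tested genes.

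**Figure D4:**
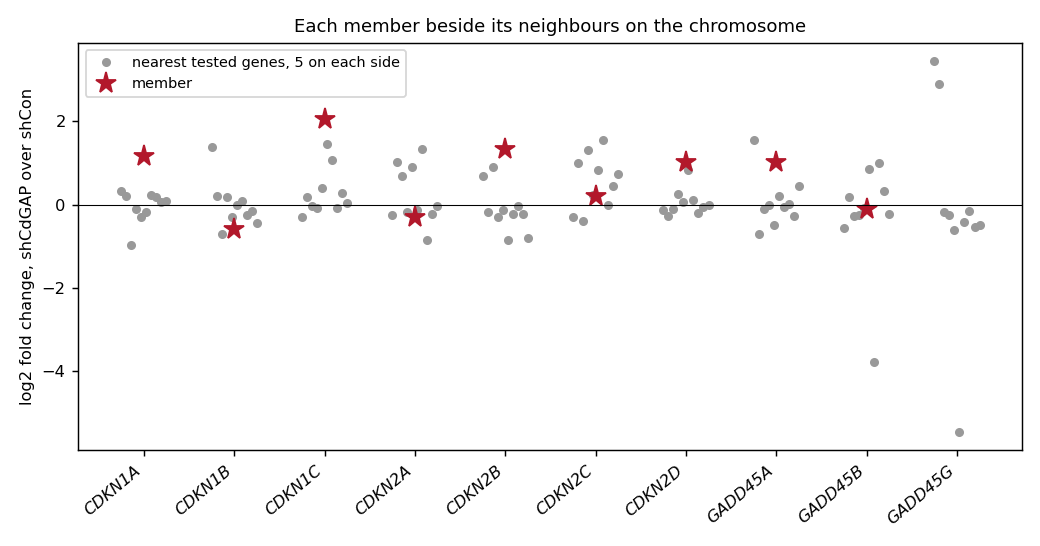
Log2 fold change of shCdGAP over shCon (vertical axis) of each member (red stars) and of its 10 nearest tested genes (grey points, ordered by position). CDKN1A, CDKN2B and GADD45A stand apart from most of their neighbours, CDKN1C has raised points to its right, and GADD45G, not tested, has no star.

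The kinases and cyclins that these inhibitors act on were taken as a list of 16, of which 15 were tested. None rose and 9 fell, with a median log2 fold change of -0.25, against a background of 24.1% higher and 22.0% lower. CDK4 fell by 0.36 and CDK6 by 0.33 on the log2 scale (adjusted p = 2.35e-05 and 0.000241 by edgeR). The largest falls belonged to CCNA1 at -1.23, which lies on chromosome 13 and had only 1.19 mean CPM in shCdGAP and 2.78 in shCon cells, and to CCNE2, the cyclin E2 gene, at -1.01. CCND1, the cyclin D1 gene, was at 512 ± 15.9 CPM in shCdGAP and 475 ± 4.55 in shCon cells (SD, n = 3 each) and did not pass (adjusted p = 0.0256). Without replicate 2 of shCdGAP, CCND1 passed as higher, at a log2 fold change of 0.12 (adjusted p = 2.63e-05 by edgeR), and was then the 1 gene of the list that did. Of 13 pocket protein, E2F and DP genes, 5 fell and 2 rose, beside the same shares over all genes. RB1 (-1.60) and TFDP1 (-1.77), which lie on chromosome 13, fell most, while the atypical E2F genes E2F8 (0.69) and E2F7 (0.38) rose.

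Of 17 genes for the turnover of the inhibitors, 9 fell and 2 rose, with a median log2 fold change of -0.17, beside 22.0% lower and 24.1% higher over all tested genes. SKP2, the F-box protein that marks p27 and p21 for destruction, fell to 0.519 of its shCon level (adjusted p = 2.52e-07 by edgeR). DTL, the receptor of the CUL4 ligase that degrades p21 on loaded PCNA, fell by 0.98, and CUL4A, on chromosome 13, by 1.65. SKP1 (0.38) and CDC20 (0.25) rose. RNA counts give no protein levels.

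Of 25 regulators of inhibitor transcription, 22 were tested, 5 rose and 5 fell, with a median of 0.03. Both counts are near the shares over all tested genes, 24.1% higher and 22.0% lower, and 9 were lower without replicate 2 of shCdGAP. KLF6, a Kruppel-like factor known to act on the CDKN1A promoter, rose 2.66-fold from 44.4 ± 0.629 to 118 ± 4.51 CPM (SD, n = 3 each, adjusted p = 3.31e-08 by edgeR). TP63, which encodes a transcription factor of epithelia, rose by 1.04 (adjusted p = 0.000780). FOXO1, on chromosome 13, fell by 0.67 and TFAP4, a known repressor of CDKN1A, by 0.41. MYC, whose product can repress CDKN1A and CDKN2B, was at 1827 ± 291 and 1926 ± 23.1 CPM (adjusted p = 0.548), and without replicate 2 of shCdGAP it fell by 0.22 (adjusted p = 5.40e-12). Polycomb proteins silence the INK4 locus in many cells. Of 17 Polycomb genes, counted together with the opposing demethylase genes KDM6A and KDM6B, 6 fell, KDM6A among them, and 2 rose, beside 22.0% lower and 24.1% higher over all tested genes. EZH2, the methyltransferase, fell by 0.34, CBX2 by 1.28 and EED by 0.49, while BMI1 rose by 0.86 and RING1 by 0.28.

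Of 16 GADD45 partners, 8 fell and 1 rose, with a median of -0.20, beside 22.0% lower and 24.1% higher over all tested genes. Without replicate 2 of shCdGAP, 2 were higher. ERCC5, on chromosome 13, fell by 1.47 and MAP2K3 by 0.76, and AURKA, a mitotic kinase bound by GADD45A, rose by 0.22. Of the direct partners named above, MAP3K4, PCNA and CDK1 were among those that fell. PCNA, CDK1 and CCNB1 stand in 2 of these lists each. Of 7 transcripts listed as antisense to members or near them, 4 were in the tables and 3 were tested. CDKN2B-AS1, the tested one that overlaps members, did not pass, nor did KCNQ1OT1, and MTAP, which does not overlap CDKN2A, fell.

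**Figure D5:**
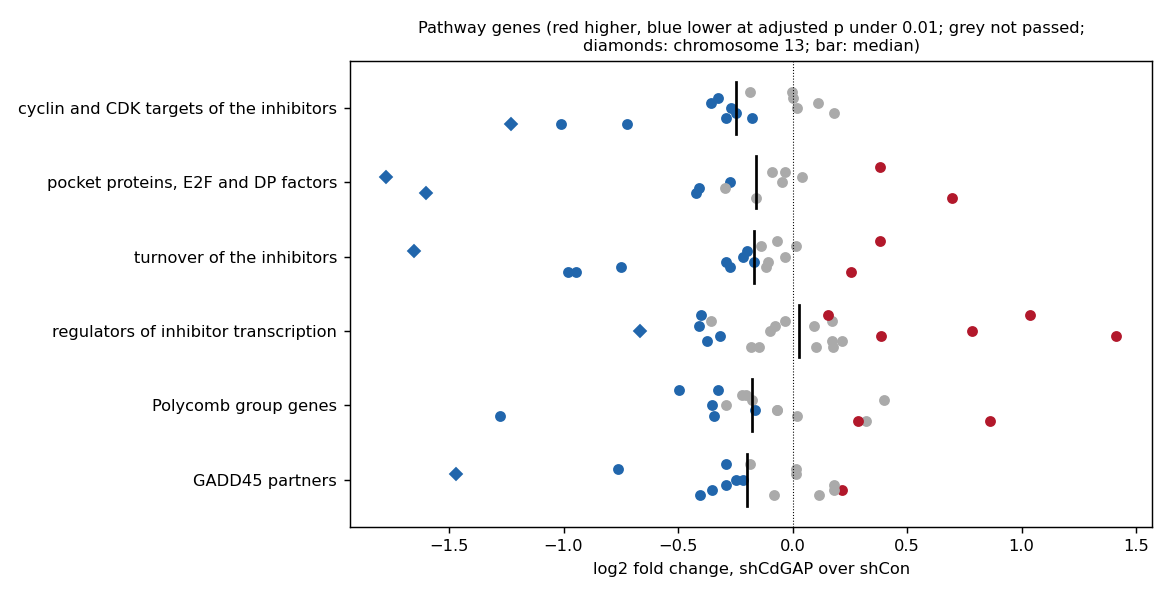
Log2 fold change of shCdGAP over shCon (horizontal axis) of the tested genes of 6 lists, with red for genes that rose, blue for those that fell, grey for those that did not pass, diamonds for genes on chromosome 13 and bars for list medians. The list of cyclin and CDK targets has no red point, and that of regulators has 5 red and 5 blue points.

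For each member that passed, the genes with the most similar profile were found over the 6 libraries, as the smallest root mean square difference of mean-centred log2 CPM among tested genes with at least 10 mean CPM. All points share the same 6 libraries in 2 groups. SMTN, GBP1 and CXCL6 were nearest to CDKN1A (0.0395 to 0.0465). HTATIP2, TTLL7 and ZNF185 were nearest to GADD45A, and ABCA5, CCPG1 and DDX60L to CDKN2D. MYH15, EPOR and CYB5R2 were nearest to CDKN2B (0.0525 to 0.0702). Each was highest in replicate 2 of shCdGAP, which follows from matching over all 6 libraries and is no separate finding. ARRDC2, CEBPD and RPL27 were nearest to CDKN1B, and NCAPD2, EIF5A2 and PHGDH to CDKN2C. CDKN1C had no close match, its nearest genes GJB2, BARX2 and NDRG1 lying at 0.206 to 0.221. Its own mean of 1.76 CPM in shCdGAP and 0.426 in shCon cells is far below the 10 CPM required of matches. How far its few reads widen these distances was not tested. NDRG1 had a log2 fold change of 1.98 and did not pass. Without replicate 2 of shCdGAP it passed at 1.35 (adjusted p = 0.00499 by edgeR).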

How the data were processed

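The authors extracted RNA from PC-3 cells, aligned the reads with STAR (2.5.1b) and counted them per gene with featureCounts (1.6.0 in the file headers, 1.4.6 in the submitters' processing notes) on Ensembl release 77 of GRCh38. The authors deposited 1 table of raw counts per sample, with a gene length in bases. No other normalisation had been applied. Samples were grouped by their labels, 3 per group, and the methods describe them as independent samples. The paper gives its PC-3 knockdown level for a single clone, and the labels name no clone. If the shCdGAP samples share that clone, intervals and p-values measure spread between its samples, not between separate knockdowns.

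Counts were filtered with filterByExpr, scaled by TMM and tested with edgeR's robust quasi-likelihood test (edgeR 4.0.16, R 4.3.3), with Benjamini-Hochberg adjustment over 16439 genes. Rose and fell mean an adjusted p under 0.01. TPM were computed from counts and lengths. DESeq2 (1.42.0) and limma-voom (limma 3.58.1) were alternatives, beside other scalings and filters, a replicate block and leaving out each library. The scripts were tested on simulated data. Depth was 33182796 to 43154039 counted reads, and a count of 0 was taken to allow up to 3 reads, which covers counting error only.

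The members and lists were chosen with earlier results of these data known. Named genes were the members, ARHGAP31, RB1, MTAP, CDKN2B-AS1, SKP2, MYC, EZH2, CDK4, CDK6 and CCND1, the 2 highest and 2 lowest called genes of each list, and for each called member the 3 genes of most similar profile and the nearest tested gene on each side. Some items under this rule are not reported here. The main test did not pair samples by replicate number. Promoters come from RefSeq (GRCh38.p14).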

Additional observations from a re-analysis of the deposited data

How the results depend on the processing

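Over 15 alternative settings, 128 of 135 values of the tested members kept their direction and side of the threshold, 6 kept their direction but no longer passed, 1 newly passed and none reversed. Those that no longer passed were 5 of CDKN2C and 1 of CDKN2B, and CDKN2A newly passed without shCdGAP replicate 2. Leaving out single libraries gave 5 to 7 members higher and 1 to 2 lower, against 6 and 1, and with a fold limit of log2 1 there were 0 lower. Over all genes, the fold limit left 1407 of 3963 higher and 689 of 3624 lower, and leaving out single libraries gave 2953 to 5013 higher and 2834 to 5022 lower.

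Of the lists, cyclin and CDK targets had 0 higher, but 1 with library-size scaling, 1 with no filter and 0 to 1 without single libraries. Pocket and E2F genes had 1 to 2 higher without single libraries (2 with all), turnover genes 1 to 2 higher (2) and 5 to 13 lower (9), with 5 lower under library-size scaling. Regulators had 4 to 9 lower (5). Polycomb genes had 1 to 3 higher (2) and 5 to 9 lower (6), with 4 higher under no filter. GADD45 partners had 0 to 2 higher (1), and 2 under upper-quartile scaling, library-size scaling, no filter or 1 CPM in 3 libraries. Without shCdGAP replicate 2 there were 9 regulators lower, and 1 cyclin or CDK target and 2 GADD45 partners higher. Leaving out shCon replicate 2 or 3 gave 5 turnover genes lower, and without shCon replicate 3 there were 0 GADD45 partners higher. Each library but shCdGAP replicate 2 gave 1 pocket or E2F gene and 1 Polycomb gene higher when left out, and each shCon library 1 turnover gene higher. The cause of these changes was not tested. ENSG00000275560, at a log2 fold change of -0.0054, changed sign to 0.00109 with DESeq2, 0.0475 with limma-voom, 0.00675 with upper-quartile scaling, 0.0205 with library-size scaling and 0.000547 with no filter, and ranged from -0.22 to 0.29 without single libraries.

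Deviations of same-numbered libraries correlated at 0.0269, 0.0467 and 0.0439 across genes. All were under 0.1, and the main test did not pair the samples. Every library correlated best with its own number (others -0.0651 to 0.0207), so these values do not settle whether a weak pairing exists. With the replicate block, 3808 genes were higher and 3421 lower, no call of a member changed, and ENSG00000275560 was at 0.00336. Depth limits GADD45G, with 0 reads in shCon libraries, and CDKN1C, with at most 19.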
